A study of Arabidopsis thaliana with 2 samples.

Results

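The genes described here are 10 phloem genes of Arabidopsis thaliana, chosen by locus from 22937 loci with reads in a root tip transcriptome: SUC2, SWEET11, AHA3, SEOR1, SEOR2, CALS7, PP2-A1, FTIP1, APL and OPS. They are set by a list of locus names with no threshold on a measured value, a list drawn up with earlier results of these data known. All 10 loci were found in the deposited table. The series compared root tips of primary roots from 2 groups grown without added treatment, the wild-type accession Col and atphb3, a mutant whose name refers to PHB3 (PROHIBITIN 3), which forms ring-like scaffolds in the mitochondrial inner membrane. The labels do not say which mutation atphb3 carries, how old the seedlings were or at what hour they were harvested. Seeds of both groups spent 3 days in the cold on Murashige and Skoog medium, and seedlings were kept at 20 °C under a day of 16 h light and 8 h dark. Each group held 1 library, so no test between genotypes was possible, and intervals given below cover counting error only.

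Phloem carries sugar from leaves to the root tip. Its conducting cells, the sieve elements, lose their nuclei as they mature and are kept alive by companion cells beside them. In leaves, SWEET proteins release sucrose, and SUC2 pumps it into companion cells with protons that a plasma membrane ATPase such as AHA3 has moved out. SUC2 also acts along the transport path, where it retrieves sucrose that has leaked out. SEOR1 and SEOR2 form the protein filaments of sieve elements, and CALS7 makes the callose that lines the pores between them. In the root tip, the first sieve elements mature close to the meristem, under regulators such as OPS and APL.

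The sequences around the starts of SUC2, SWEET11, SEOR1 and SEOR2 are shown because these were the 4 genes that had enough reads and differed by 2-fold or more, all lower in the library labelled atphb3. Each runs 5′ to 3′ on the gene's strand, from 250 bases before to 50 bases after the gene start in RefSeq's annotation of TAIR10.1. SUC2 lies at chr1:8033107-8033406 on the minus strand, SWEET11 at chr3:18054783-18055082 on the minus strand, SEOR1 at chr3:251618-251917 on the plus strand and SEOR2 at chr3:246942-247241 on the plus strand. Capitals mark AAAG on either strand, the core bound by DOF factors, and CACGTG, the G-box.
SUC2: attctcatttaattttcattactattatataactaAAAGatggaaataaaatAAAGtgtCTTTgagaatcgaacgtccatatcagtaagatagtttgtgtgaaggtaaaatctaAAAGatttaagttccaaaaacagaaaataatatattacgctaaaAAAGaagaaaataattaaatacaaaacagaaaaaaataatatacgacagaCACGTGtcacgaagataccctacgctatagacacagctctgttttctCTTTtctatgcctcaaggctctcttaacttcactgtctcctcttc
SWEET11: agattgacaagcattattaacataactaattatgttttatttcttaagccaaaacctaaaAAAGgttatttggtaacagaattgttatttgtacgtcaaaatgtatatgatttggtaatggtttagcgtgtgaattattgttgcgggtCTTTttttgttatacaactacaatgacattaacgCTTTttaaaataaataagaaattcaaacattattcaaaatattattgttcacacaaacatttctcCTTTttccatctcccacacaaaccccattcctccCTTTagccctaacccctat
SEOR1: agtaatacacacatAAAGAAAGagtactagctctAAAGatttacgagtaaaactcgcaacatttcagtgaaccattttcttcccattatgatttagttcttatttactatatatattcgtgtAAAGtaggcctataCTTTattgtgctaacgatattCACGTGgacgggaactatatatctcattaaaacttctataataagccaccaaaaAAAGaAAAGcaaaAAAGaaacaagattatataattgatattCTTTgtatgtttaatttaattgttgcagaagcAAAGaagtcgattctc
SEOR2: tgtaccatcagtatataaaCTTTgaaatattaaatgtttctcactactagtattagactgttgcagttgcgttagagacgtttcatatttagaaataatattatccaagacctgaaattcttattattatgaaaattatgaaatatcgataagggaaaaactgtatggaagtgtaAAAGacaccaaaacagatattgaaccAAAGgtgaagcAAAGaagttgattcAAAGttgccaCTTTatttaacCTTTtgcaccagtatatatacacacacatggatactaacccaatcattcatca

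DOF proteins are a plant transcription factor family with several members that act in phloem. The AAAG core, read on both strands, occurred 6 times in the SUC2 window, 5 times in SWEET11, 10 times in SEOR1 and 7 times in SEOR2. Of 27443 windows of the same length around protein-coding genes, 99.1% held at least 1 AAAG, with a median of 5, and 4.14% held 10 or more. CACGTG occurred once in SUC2, from 42 to 37 bases before the start, and once in SEOR1, from 93 to 88 bases before it, against 7.68% of all windows with at least 1. The clock's evening element, AAAATATCT, was in none of the windows of the 10 genes and in 2.82% of all windows. The light-responsive I-box, GATAAG, was found once each in SEOR2 and OPS and in 14.6% of all windows. These are letter matches on both strands. No motif searched overlaps another in the sequences shown.

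Reads assigned to transcripts came to 7451022 in Col, with 7384348 in the library labelled atphb3, so 1 read equals 0.134 and 0.135 CPM, the unit used below for reads scaled to the library total. PHB3 itself had 915 and 863 reads, which gives no check of the label, and "the library labelled atphb3" is written for that reason. Where a pair of read counts is given below, the first is Col. A locus is called measured here if either library gave it 50 or more reads, as for 12931 loci. Measured were 8 of the 10 phloem genes, 7 of them with 50 or more reads in both libraries. SWEET11 was measured through Col alone, and AHA3 and APL had too few reads in both.

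The phloem genes differed between the libraries by very different factors, and most were lower in the library labelled atphb3. Of the 10, 5 had a CPM at least 2-fold lower, the other 5 stayed within 2-fold, and 0 passed 2-fold upward. The 5 were SWEET11, SUC2, SEOR2, APL and SEOR1. Over all listed loci with no filter on reads, 15.7% were at least 2-fold lower and 17.5% higher. Without APL, which rested on 5 reads, the count was 4 of the 8 measured phloem genes, against 10.2% of all measured loci that were at least 2-fold lower and 9.77% that were higher. SWEET11 is 1 of these 4 and passed the minimum of reads in Col alone. As the list was drawn up with earlier results of these data known, these shares are no test of phloem genes. The median log2 ratio of the 10 genes, atphb3 over Col after adding 0.5 reads to each count, was -1.19, against 0.08 over all measured loci. The range over the 10 ran from -4.79 to 0.50.

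**Figure D1:**
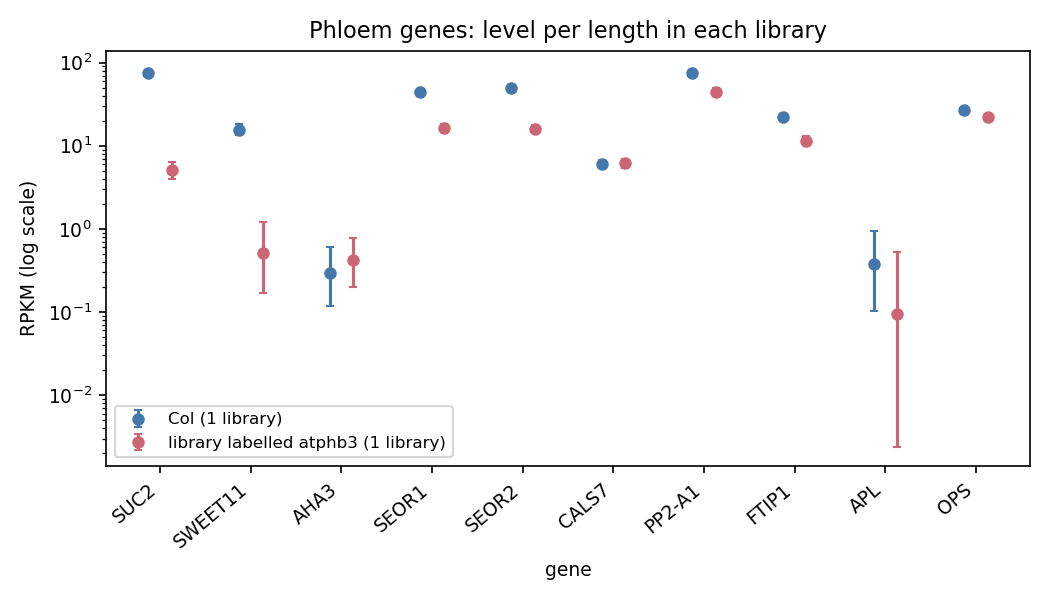
Level of the 10 phloem genes in RPKM (reads scaled to transcript length and library total, log axis) in Col (blue) and the library labelled atphb3 (red), 1 library each. Bars are exact 95% Poisson intervals, which cover counting error only. SUC2 went from 76.0 to 5.05 RPKM, while CALS7 stayed at 6.05 and 6.15.

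The genes of sucrose transport held the largest differences. SUC2 (AT1G22710, chromosome 1, 8030641 to 8033117, minus strand) encodes the sucrose-proton symporter of companion cells. It had 1107 reads in Col against 73 in the library labelled atphb3, that is 148.6 CPM (95% Poisson interval 139.9 to 157.6) and 9.89 CPM (7.75 to 12.4). The library labelled atphb3 was low, and the intervals were far apart. The ratio was 15-fold lower, with a 95% Clopper-Pearson interval of 11.9 to 19.3. Ranked by log2 ratio from the lowest, SUC2 was number 81 of the 12931 measured loci.

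SWEET11 (AT3G48740, chromosome 3, 18052466 to 18054755, minus strand) encodes a sucrose effluxer of the plasma membrane. It had 153 reads in Col, or 20.5 CPM (17.4 to 24.1), and 5 in the library labelled atphb3, or 0.677 CPM (0.220 to 1.58). It was nearly lost from the second library, at 30.3-fold lower (12.7 to 94.7). Its interval was wide because 5 reads set the lower level, and it overlapped that of SUC2. SWEET11 was number 37 from the lowest.

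AHA3 (AT5G57350, chromosome 5, 23230879 to 23236572, minus strand) encodes a proton pump that energises sucrose uptake in companion cells. It had 7 reads in Col against 10 in the library labelled atphb3, summed over 2 listed transcripts with 6 and 8 reads for one and 1 and 2 for the other. The log2 ratio of 0.50 had a counting interval from -1.01 to 2.16, so neither a rise nor a fall was detectable at this depth. RefSeq gives 4 transcripts for AHA3, and 95.7% of the 50-base windows of the longest recur in another of them. The sources used here do not give the rule for reads that match several transcripts, so the low level of AHA3 is uncertain. Loci with several listed transcripts had a median of 17 reads in Col and 25.3% were measured. For loci with 1 listed transcript these were 81.5 reads and 61.2%. The same uncertainty holds for other loci with several listed transcripts named below, such as RCA, CVL1 and SUC3.

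The closest relatives of SUC2 and SWEET11 differed in size and in direction. SUC1, whose protein is 76.7% identical to SUC2, had 1400 and 997 reads, 1.39-fold lower (1.28 to 1.51). SUC4, a sucrose carrier of the vacuole membrane, had 236 and 177 reads, 1.32-fold lower (1.08 to 1.62). SUC2 shared 0% of its 50-base windows with any other RefSeq locus, and so did SUC1. Of 8 other genes of the SUC family, 3 are listed, SUC3 with 20 and 12 reads, and the other 5 are not analysed here.

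SWEET12, which acts with SWEET11 in sucrose release and is 83.8% identical to it, had 222 and 33 reads, 6.67-fold lower (4.61 to 9.93). SWEET13 and SWEET14 of the same clade went the other way. SWEET13 had 13 reads in Col against 163 in the library labelled atphb3, 12.7-fold higher (7.19 to 24.3), and SWEET14 had 13 and 159, 12.3-fold higher (7.01 to 23.7). Both passed the minimum of reads only in the library labelled atphb3. SWEET16, a vacuolar sugar carrier, had 349 and 86 reads, 4.02-fold lower (3.17 to 5.15). Of 10 other SWEET genes listed, 4 stayed within 2-fold, 3 were lower by more and 3 higher, of which SWEET9 rested on 1 read. Over all listed loci the shares were 15.7% lower and 17.5% higher. SWEET11, SWEET12, SWEET13 and SWEET14 shared 0% of their 50-base windows with another locus, so reads of that length can be told apart.

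Leaf genes were lower beside SUC2 and SWEET11. Of 10 leaf markers, light-harvesting and Rubisco genes, 8 were lower by 2-fold or more and 0 higher, against 15.7% and 17.5% of all listed loci. Of these 10, 6 were measured and 5 of the 6 were lower, against 10.2% of all measured loci. Their summed level was 794 CPM in Col and 356 CPM in the library labelled atphb3. LHB1B1 had 455 reads in Col against 2 in the other library, 225-fold lower (62.1 to 1867), and CAB3 had 432 and 4, 107-fold lower (41.5 to 395). CAB2 had 330 and 9 reads, 36.3-fold lower (18.9 to 80.2). CAB genes are near copies of each other, so each one's share of their reads is uncertain. Shared windows were not computed for LHB1B1 and LHB1B2, so how reads divide between these 2 genes is uncertain too. RBCS1B, a Rubisco small subunit, had 19 reads in Col against 0 in the other library and so was not measured. Shared windows were not computed for the Rubisco small subunit genes, so how reads divide among them is uncertain as well. LHB1B2 and RCA lay within 2-fold, with 2137 and 2410 reads for the first and 28 and 31 for the second. The samples were labelled as root tips, while a further sentence of the extraction protocol also names shoots. In bulk RNA, fewer cells of a type and less RNA per cell cannot be told apart, and the part of leaf or other tissue in these differences was not tested.

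**Figure D2:**
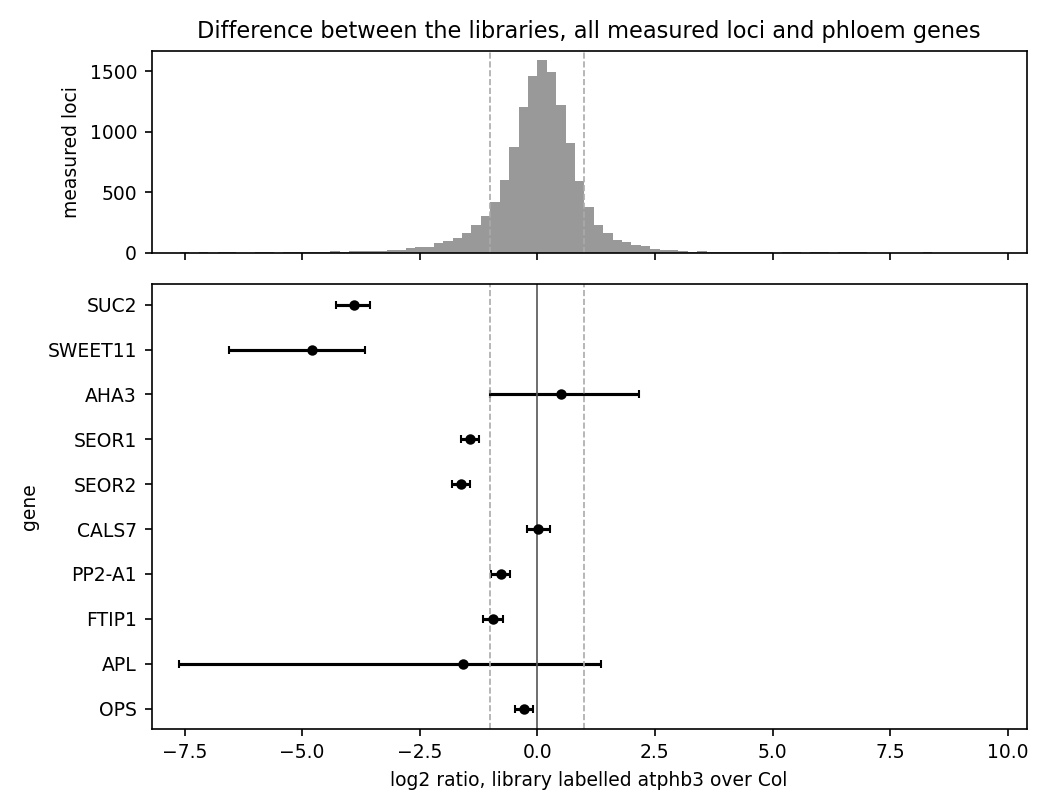
Top, number of measured loci by log2 ratio, library labelled atphb3 over Col. Bottom, log2 ratio of each phloem gene after adding 0.5 reads, with its 95% Clopper-Pearson interval (counting error only, 1 library per group). Dashed lines mark 2-fold. SUC2 at -3.90 and SWEET11 at -4.79 stand far to the left, and the bars of APL and AHA3 span 0.

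The 2 filament genes of sieve elements were lower by nearly the same factor. SEOR1 (AT3G01680, chromosome 3, 251981 to 255513, plus strand) had 833 reads in Col against 305 in the library labelled atphb3, or 111.8 CPM (104.3 to 119.7) and 41.3 CPM (36.8 to 46.2). It was 2.71-fold lower (2.37 to 3.10). SEOR2 (AT3G01670, chromosome 3, 247234 to 250470, plus strand) had 1006 and 324 reads, or 135.0 CPM (126.8 to 143.6) and 43.9 CPM (39.2 to 48.9). It was 3.08-fold lower (2.71 to 3.50). The 2 intervals overlapped, so the genes could not be told apart by their ratio.

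SEOR2 ends 1510 bases before SEOR1 begins, and both are read in the same direction. Their proteins, of 846 and 740 residues, are 29.7% identical, and neither transcript shared a 50-base window with another locus. SEOR2 has 2 RefSeq transcripts, of which 1 was listed, and 98.7% of the windows of the longer recur in the other. In the SEOR1 and SEOR2 windows shown above, the AAAG core was the motif present in both. AT1G67790, which the deposited table describes as most like SEOR1, had only 4 and 3 reads.

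CALS7 (AT1G06490, chromosome 1, 1978762 to 1989409, plus strand) encodes the callose synthase of sieve plates. It had 270 reads in Col against 272 in the library labelled atphb3, or 36.2 CPM (32.0 to 40.8) and 36.8 CPM (32.6 to 41.5). The levels overlapped. Its ratio was 1.02 with an interval from 0.856 to 1.21, so counting error allows no difference as large as those of SEOR1 and SEOR2. RefSeq gives 2 transcripts for CALS7, of which 1 was listed, and 91.3% of the windows of the longer recur in the other.

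Companion cell genes other than the transporters were lower by under 2-fold. PP2-A1 (AT4G19840, chromosome 4, 10774273 to 10775901, plus strand) encodes a lectin abundant in phloem sap. It had 568 reads in Col against 327 in the library labelled atphb3, or 76.2 CPM (70.1 to 82.8) and 44.3 CPM (39.6 to 49.4), 1.72-fold lower (1.5 to 1.98). FTIP1 (AT5G06850, chromosome 5, 2126975 to 2130443, minus strand) encodes a membrane protein that helps to move the flowering signal FT out of companion cells. It had 506 and 261 reads, or 67.9 CPM (62.1 to 74.1) and 35.3 CPM (31.2 to 39.9), 1.92-fold lower (1.65 to 2.24). The levels of both genes did not overlap between the libraries. Under TMM scaling FTIP1 passed 2-fold, which brought the count from 5 to 6 of 10. The RefSeq transcript of PP2-A1 begins further upstream than the listed one, and 16.0% of its 50-base windows recur in another locus.

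The 2 regulators gave a small difference and no usable level. OPS (AT3G09070, chromosome 3, 2768688 to 2771174, minus strand) encodes a membrane protein that promotes sieve element fate. It had 496 reads in Col against 403 in the library labelled atphb3, or 66.6 CPM (60.8 to 72.7) and 54.6 CPM (49.4 to 60.2). It was 1.22-fold lower (1.07 to 1.39). APL (AT1G79430, chromosome 1, 29877228 to 29879206, minus strand) encodes a MYB-type factor needed for phloem identity. It had 4 reads in Col against 1 in the library labelled atphb3. The ratio was 0.252 with an interval from 0.00512 to 2.55, which allows a difference in either direction. APL has 2 RefSeq transcripts that share 90.6% of the windows of the longer one, and 1 of the 2 was listed. As for AHA3, its level is therefore uncertain. The same limit applies to the levels of SEOR2 and CALS7, for which 1 of 2 RefSeq transcripts was listed as well.

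Seen per length, the order of the genes changed between the libraries. In Col, SUC2 at 76.0 RPKM and PP2-A1 at 75.9 RPKM had the highest levels and differed by less than their counting error. SEOR2 followed at 49.4 RPKM, SEOR1 at 44.0, OPS at 26.8, FTIP1 at 22, SWEET11 at 15.7 and CALS7 at 6.05. In the library labelled atphb3, PP2-A1 at 44.1 RPKM was highest and OPS at 21.9 was next, ahead of SEOR1 at 16.2 and SEOR2 at 16.1. SUC2, the highest of the 10 in Col, was number 7 there at 5.05 RPKM, below CALS7 at 6.15, with overlapping intervals.

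Summed over the 10 genes, the level was 664 CPM in Col and 268 CPM in the library labelled atphb3, 2.48-fold lower (2.35 to 2.61). Without SUC2 it was 516 and 258 CPM, 2.0-fold lower (1.89 to 2.11). Without SUC2 and SWEET11 it was 495 and 258 CPM, 1.92-fold lower (1.82 to 2.03). The lower sum was thus seen with and without the sucrose transporters, but not as a drop shared by each gene. Of the 3690 and 1903 reads in the last sum, SEOR1 held 833 and 305 and SEOR2 1006 and 324. CALS7 held 270 and 272.

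**Figure D3:**
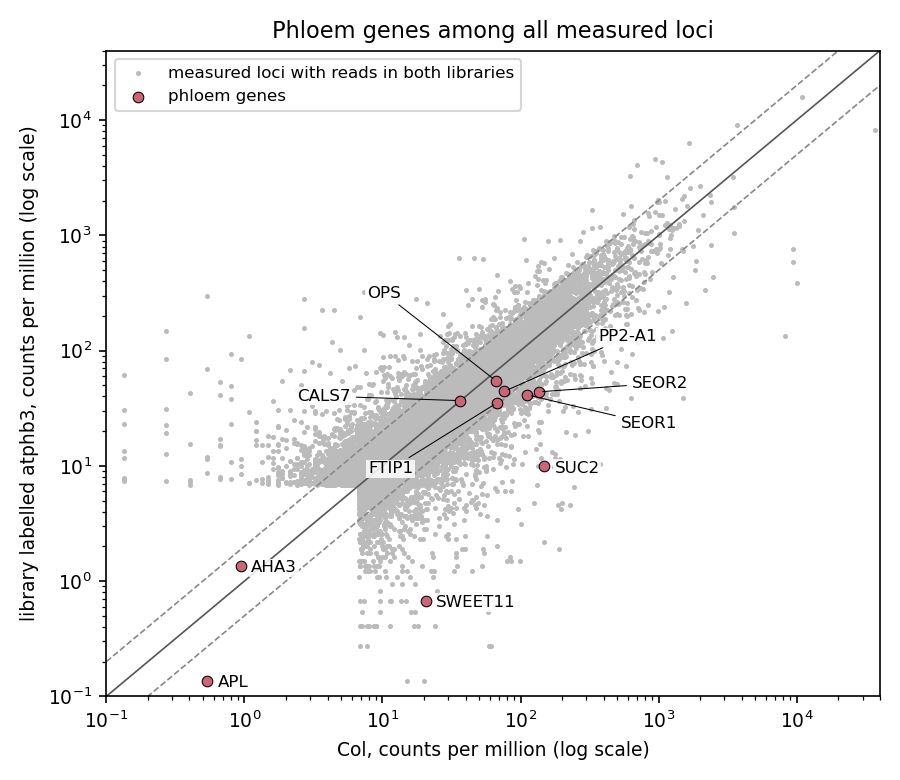
CPM in Col and the library labelled atphb3 (both log axes) for measured loci with reads in both libraries (grey) and for the 10 phloem genes (red). The solid line marks equal levels and the dashed lines 2-fold. SUC2 and SWEET11 lie far below the lower dashed line, SEOR1 and SEOR2 just below it, and CALS7 on the line of equal levels.

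Other genes of early phloem in the root tip differed less than SUC2 and SWEET11. A list of 20 regulators and receptors held 17 genes within 2-fold, 2 that were lower by more and 1 that was higher, with a median log2 ratio of -0.43. Over all listed loci, 15.7% were at least 2-fold lower and 17.5% higher. Among the 12 measured genes of the list, 2 were lower by that much and 0 higher, against 10.2% and 9.77% of all measured loci. For 13 of the 20 the log2 ratio was below 0, against 10374 of all 22937 listed loci. SMXL3, which promotes phloem formation with its relatives, had 570 and 256 reads, 2.21-fold lower (1.90 to 2.57). AT2G38070, a gene of the DUF740 family like OPS, had 57 and 20 reads, 2.82-fold lower (1.67 to 4.96). CVL1, the 1 higher gene, had 2 and 4 reads, a ratio of 2.02 with an interval from 0.289 to 22.3.

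A second list held 18 genes of phloem transport and of mature phloem cells. Here 13 stayed within 2-fold, 4 were lower by more and 1 was higher, against 15.7% lower and 17.5% higher over all listed loci. Its median log2 ratio was -0.48. NPF2.9, a nitrate carrier of root companion cells, had 2674 reads in Col against 997 in the library labelled atphb3, 2.66-fold lower (2.47 to 2.86). AKT2, a potassium channel of phloem, had 25 and 4 reads, 6.19-fold lower (2.14 to 24.5). SWEET12 was the third, and PP2-A2, with 1 read and 0, the fourth. SULTR1;3, a sulfate carrier of companion cells, had 0 reads in Col against 84 in the library labelled atphb3, which is 28.3-fold above a floor of 3 counts per library. The lower bound of its 95% Clopper-Pearson interval, which includes the counting error of the 84 reads, was a ratio of 22.5. RefSeq gives 4 transcripts for SULTR1;3, and 93.9% of the windows of the longest recur in another of them, so its level is uncertain. Of the 18 genes, 14 had a log2 ratio below 0. OPT3, within 2-fold, had 242 and 444 reads, 1.85-fold higher (1.58 to 2.17). In the first list, DOF6 had 32 and 55 reads, 1.73-fold higher (1.10 to 2.77). Both lists therefore held phloem genes that were lower, near equal and higher. Of the 10 genes, 0 were at least 2-fold higher, and AHA3, with the highest ratio, had an interval that spanned no difference.

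Genes that use sucrose after unloading were split. Among 12 sucrose-cleaving enzymes and hexose carriers, 6 stayed within 2-fold, 4 were higher by more and 2 lower. Over all listed loci, 17.5% were higher and 15.7% lower by that much. The median log2 ratio was 0.33. Of the 4 higher genes, 2 were measured. SUS3, a sucrose synthase, had 544 and 1154 reads, 2.14-fold higher (1.93 to 2.37). ATBETAFRUCT4, a vacuolar invertase, had 884 and 1887 reads, 2.15-fold higher (1.99 to 2.34). The monosaccharide carriers STP1 and STP4 were lower. STP1 had 1391 and 569 reads, 2.42-fold lower (2.2 to 2.68), and STP4 had 2072 and 878, 2.34-fold lower (2.16 to 2.53).

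**Figure D4:**
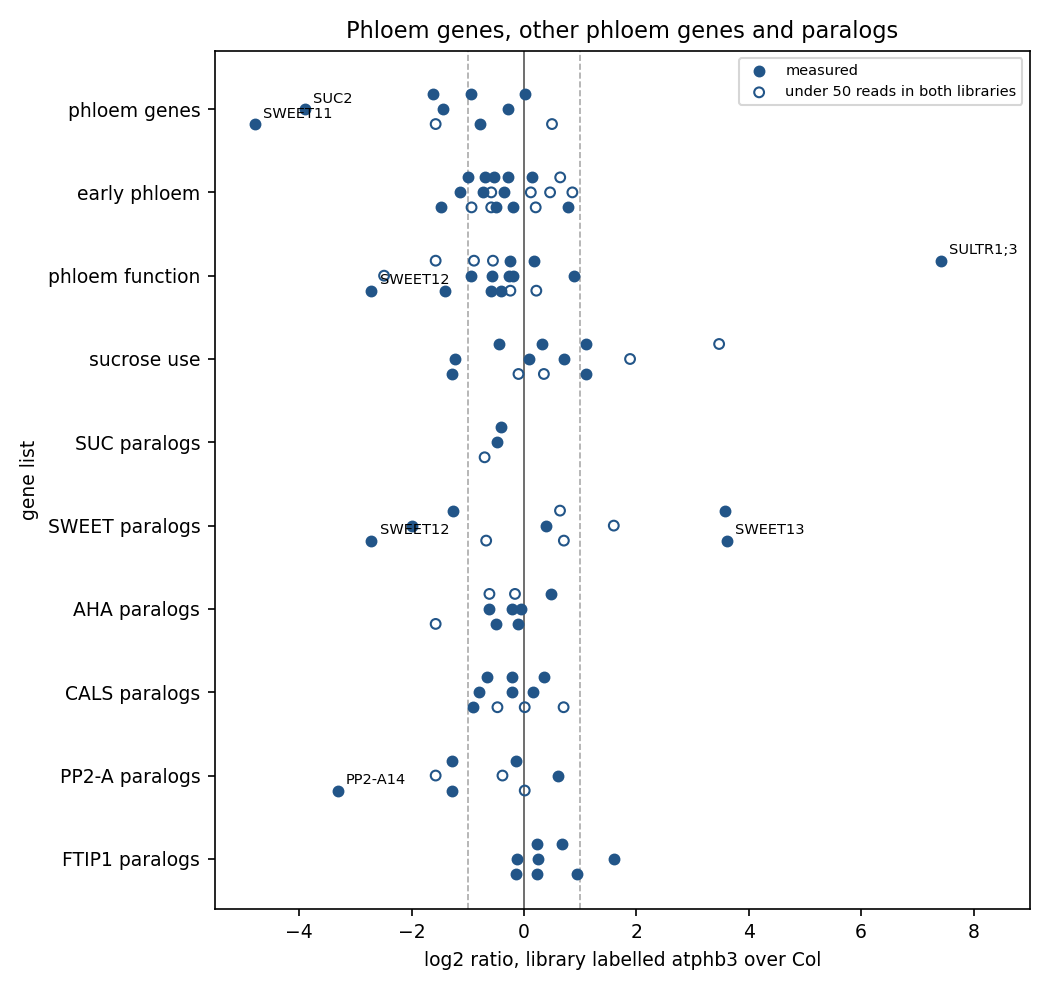
Log2 ratio, library labelled atphb3 over Col after adding 0.5 reads, for the 10 phloem genes, 3 lists of related genes and the paralogs of 6 members. Each point is 1 gene, filled if measured and open if under 50 reads in both libraries, and dashed lines mark 2-fold. SWEET12 at -2.72 lies opposite SWEET13 at 3.61, and SULTR1;3, at 0 reads in Col, lies far right at a value that depends on the added 0.5 reads.

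Among markers of other root tissues, most procambium genes were lower and most root hair genes higher, while most xylem and endodermis genes stayed within 2-fold. Shares over all listed loci, to set beside the counts here and in the next paragraph, were 15.7% at least 2-fold lower and 17.5% higher. Of 5 procambium genes, 4 were lower by 2-fold or more, among them LHW on 3 and 1 reads, and the list summed to 423 and 245 CPM. WOX4, a homeobox factor of the cambium, had 116 and 30 reads, 3.83-fold lower (2.55 to 5.93). PXY, a receptor of the same tissue, had 961 and 386 reads, 2.47-fold lower (2.19 to 2.78). TMO5, a vascular bHLH factor, had 1319 and 642 reads, 2.04-fold lower (1.85 to 2.24), and ATHB8 had 754 and 752.

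Of 6 xylem markers, only XCP2, a protease of dying xylem vessels, passed 2-fold, with 1921 and 942 reads, 2.02-fold lower (1.87 to 2.19). The 6 summed to 638 and 385 CPM. Root hair markers went the other way, with 4 of 7 higher by 2-fold or more, 0 lower and sums of 246 and 547 CPM. RHD6, which starts root hair growth, had 81 and 180 reads, 2.24-fold higher (1.72 to 2.95), and the cell wall proteins LRX1, LRX2 and COBL9 were 2.25-, 3.19- and 2.25-fold higher. Endodermis markers summed to 414 and 460 CPM, with SCR higher at 501 and 1005 reads, 2.02-fold (1.82 to 2.26), and ESB1 on 2 and 6 reads. Root cap markers summed to 16.9 and 35.3 CPM, with BRN2 at 40 and 106 reads and FEZ at 15 and 33 the 2 of 4 that were higher. None of the procambium, xylem, root hair, endodermis or root cap markers was at 0 in either library. The part of tissue make-up in the phloem differences was not tested.

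**Figure D5:**
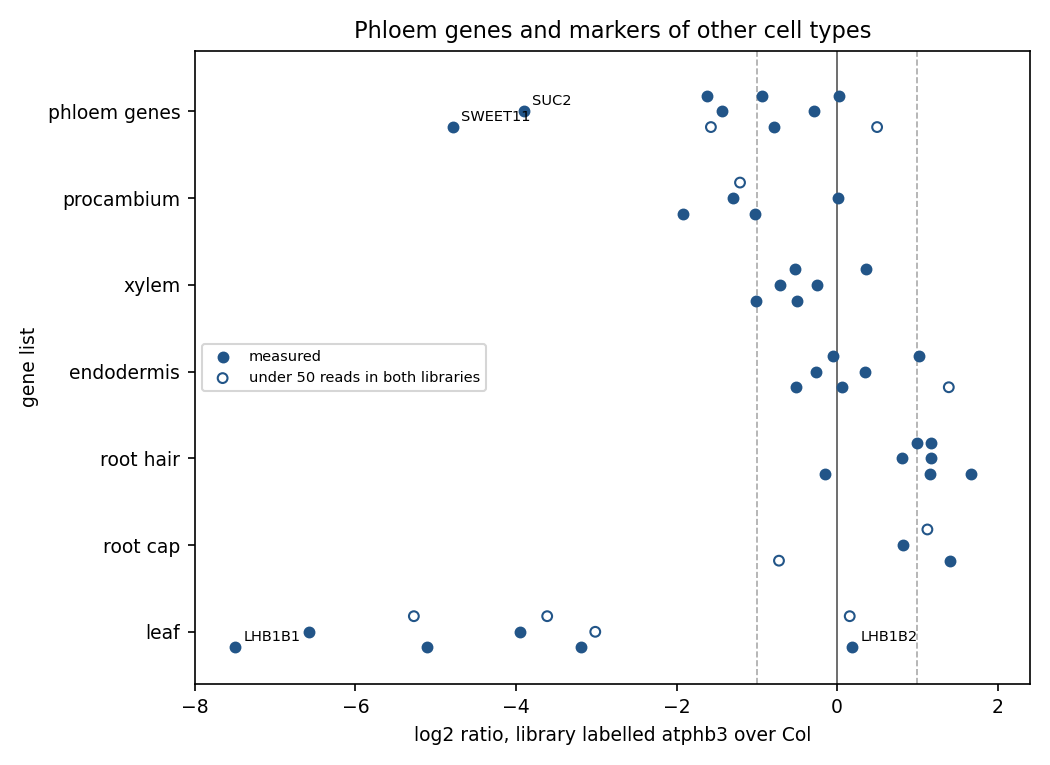
Log2 ratio, library labelled atphb3 over Col after adding 0.5 reads, for the 10 phloem genes and for marker genes of other cell types. Each point is 1 gene, filled if measured and open if under 50 reads in both libraries, and dashed lines mark 2-fold. Procambium and leaf genes lie mostly left of 0 and root hair genes mostly right of it, while LHB1B2 at 0.19 and RCA at 0.16 stand apart from the other leaf genes.

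Loci of several kinds had a ratio close to that of SUC2. Among loci that had at least 200 reads in Col or the library labelled atphb3, the 3 nearest to its log2 ratio of -3.90 were AT1G27020, CAB1 and PMT6. AT1G27020, described as an unknown protein, had 1328 and 86 reads and a log2 ratio of -3.93. CAB1, a light-harvesting protein, had 2293 and 147 reads and a log2 ratio of -3.95, and 22% of its 50-base windows recur in other loci. PMT6, annotated as a polyol transporter, had 429 and 27 reads and a log2 ratio of -3.95. All 3 loci reached 200 reads in Col alone. The likeness is that of 1 ratio over 2 libraries. Phloem genes are a small part of the loci searched, so these neighbours do not show what SUC2 shares its difference with.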

How the data were processed

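Per the labels' protocols, root tip RNA was extracted with Trizol, reverse transcribed from random primers and run on an Illumina sequencer. The deposited table lists 26425 transcripts. Per the file headers and the values, it holds raw read counts and, computed by the authors, RPKM (count divided by length and column total, with 0.01 for a count of 0), the log2 ratio of RPKM, an FDR and a p-value. The authors' p-value compares 1 library with 1 library and was not used. Aligner, counting rule and genome build are not given in the sources used here. Positions of genes are the table's, and all 10 lie inside the RefSeq spans of TAIR10.1, from which promoter windows were read.

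Counts were summed to locus and scaled to the column total as CPM, and a fold is a ratio of CPM. Intervals are exact 95% Poisson (CPM) or Clopper-Pearson (ratios, given the summed reads). Reads carry no molecular identifiers, so intervals and floors (3 counts per library) cover counting error only. No strand-marking kit is named, so reads of overlapping genes cannot be told apart. None of the 10 listed spans overlaps another RefSeq gene.

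The 10 genes and the 16 other lists (148 entries) were chosen with earlier results of these data known, and the motifs after the values were seen. Named in each other list were up to 4 genes at least 2-fold apart, ranked by the bound of the interval nearest to no difference, or else the 2 with most reads, plus the paralog nearest in protein identity and the 3 loci nearest to SUC2 in ratio. Exceptions within a list and genes at 0 reads were named after their values were seen. A symbol that the RefSeq table does not hold was replaced by the table's own. Protein identity came from translated RefSeq coding sequences aligned globally (BLOSUM62), and shared sequence from 50-base windows over all RefSeq transcripts. Alternatives were TMM (edgeR 4.0.16), median of ratios (DESeq2 1.42.0), a nuclear total, the deposited RPKM, a pseudocount of 2 reads, the most read transcript, other filters and other fold limits. The calculations were tested on simulated counts. Python 3.11.15 with numpy 2.4.6, pandas 2.3.3, scipy 1.17.1 and Biopython 1.88, and R 4.3.3 were used.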

Additional observations from a re-analysis of the deposited data

How the results depend on the processing

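The log2 ratios of the 10 genes were recomputed under 6 alternatives each, and all 60 values lay within the gene's counting interval, though CALS7, at 0.02, was -0.04 under TMM and -0.02 under median of ratios. Part of this was fixed in advance. For a gene with 1 listed transcript, the most read transcript gives the main value, and the deposited RPKM comes from the same counts. The intervals of APL and AHA3 were too wide for these alternatives to leave. The median of the 10 genes, -1.19, ranged from -1.25 under TMM to -0.96 with 2 reads added, was -1.48 as a mean and -0.94 over genes with at least 200 reads in 1 library, and was -1.19 without APL and AHA3, an alternative chosen after seeing the data. The count at least 2-fold lower, 5, was 6 under TMM, 4 with 2 reads added or with the interval wholly beyond 2-fold, and 2 at a 4-fold limit, while 0 were at least 2-fold higher at any limit or scaling tried. Over measured loci, 1313 lower and 1263 higher became 3592 and 4005 with no filter and 747 and 672 at 200 reads, since these settings count more or fewer loci. No paired analysis was possible because each group held 1 library. Depth limits AHA3 and APL, whose intervals span no difference, and replicate spread was not measured.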

Other observations

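Families of the other phloem genes showed different patterns in the same libraries. Of 8 other genes of the PP2-A family listed, 4 were at least 2-fold lower and 0 higher, against 15.7% and 17.5% of all listed loci. PP2-A14 had 346 reads in Col against 34 in the library labelled atphb3, 10.1-fold lower (7.08 to 14.8), a larger difference than that of PP2-A1. PP2-A12 had 172 and 70 reads, 2.44-fold lower (1.83 to 3.26), and PP2-A13 had 55 and 22, 2.48-fold lower (1.49 to 4.27). PP2-A2, the nearest in protein to PP2-A1 at 31.6% identity, is counted among the 4 on 1 read and 0.

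Of 8 listed relatives of FTIP1, 7 stayed within 2-fold and 1 was higher by more. The log2 ratio was above 0 for 6 and below 0 for 2, and the median was 0.24, against -0.94 for FTIP1. Over all 12931 measured loci, 7065 were above 0, with a median of 0.08. AT4G11610, described as a C2 calcium and lipid-binding family protein, had 128 and 388 reads, 3.06-fold higher (2.50 to 3.76). AT3G57880, at 67.2% identity the nearest to FTIP1 of those compared, had 475 and 748 reads. The 10 other callose synthase genes all lay within 2-fold. CALS9, with 2483 and 2124 reads, and GSL8, with 1897 and 1617, had the most reads, and GSL11, the nearest to CALS7 at 73.9% identity, had 1126 and 643. Of 9 other proton pump genes listed, 8 lay within 2-fold and AHA9, with 1 read and 0, was the exception. AHA1, at 87.8% identity the nearest to AHA3, had 11351 and 9752 reads.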
